A study of Homo sapiens with 6 samples.

Results

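Intronic peaks are the m6A-enriched regions that the authors' annotation places within an intron of their assigned gene. They were taken as every row of the 2 deposited peak tables whose annotation reads intronic. This gave 2036 of 42813 peaks in the DMSO list and 1941 of 41838 peaks in the FB23-2 list, 3977 of 84651 in all. Peaks come from methylated RNA immunoprecipitation sequencing of MHCC97H, an established human hepatocellular carcinoma cell line. One group was treated for 48 h with FB23-2 at 2 µM, a small-molecule inhibitor of the m6A demethylase FTO, and the other received DMSO vehicle, with 3 samples per treatment. RNA of both groups was poly(A)-selected and fragmented before the m6A antibody was applied. Each table is 1 list for its treatment, with no values per sample, so no difference between the lists has a replicate check, and a peak present in 1 list is not shown to depend on the drug.

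N6-methyladenosine (m6A) is the most abundant internal modification of messenger RNA, and is placed while RNA is being made by a methyltransferase complex built around METTL3 and METTL14. Most of it lies near stop codons and in 3′ UTRs. Intronic m6A is carried by RNA that still holds the intron: unspliced precursors, retained introns, transcripts that end at a polyadenylation site within an intron, or a separate RNA made from within the gene. FTO removes m6A and has been described acting on intronic sites of nuclear RNA.

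MHCC97H peaks were also looked up for marker genes of the cell type. Of 12 hepatocyte and liver cancer markers, 3 had a peak of any class in the DMSO list and 4 in the FB23-2 list, among them KRT8, KRT18 and EPCAM, and ALB, AFP and APOB had none in either. Of 12 markers of other cell types, 8 and 7 had a peak, with 11 and 8 peaks for the collagen gene COL1A1, while the leukocyte gene PTPRC and the endothelial genes PECAM1 and VWF had none. Peaks do not give RNA levels, and the part of other cells in these results was not tested.

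Sequences of intronic peaks could be read only where a peak fell in a RefSeq promoter window (250 bases before to 50 after a gene start, GRCh38.p14) or over an annotated microRNA. Such a window overlapped 27 DMSO peaks (1.33%) and 30 FB23-2 peaks (1.55%). A total of 8 distinct peak intervals lay wholly inside a window of another gene, or in the bases before a start on the same strand, and the 7 that follow show what these short regions look like. Each is the whole peak on its own strand, 5′ to 3′, credited to RefSeq, with GGAC, the core of the m6A consensus, in capitals.
TYMS, DMSO list, chr18:658319-658443, plus strand: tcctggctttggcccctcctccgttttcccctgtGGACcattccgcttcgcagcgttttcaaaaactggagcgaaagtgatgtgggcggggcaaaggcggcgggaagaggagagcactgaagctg
ACTA2, DMSO list, chr10:88990595-88990694, minus strand: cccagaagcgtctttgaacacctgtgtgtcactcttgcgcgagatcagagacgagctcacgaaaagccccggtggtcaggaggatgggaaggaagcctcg
CCDC88A, DMSO list, chr2:55308632-55308781, minus strand: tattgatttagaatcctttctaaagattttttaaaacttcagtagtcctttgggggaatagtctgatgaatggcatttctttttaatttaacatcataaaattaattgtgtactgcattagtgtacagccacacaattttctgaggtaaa
TGFB1, FB23-2 list, chr19:41310109-41310258, minus strand: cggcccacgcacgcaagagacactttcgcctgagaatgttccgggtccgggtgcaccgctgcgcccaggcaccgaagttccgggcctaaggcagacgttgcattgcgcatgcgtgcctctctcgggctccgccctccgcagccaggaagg
UBXN4, FB23-2 list, chr2:135742620-135742719, plus strand: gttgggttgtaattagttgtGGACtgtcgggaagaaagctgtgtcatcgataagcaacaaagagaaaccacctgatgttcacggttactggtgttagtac
NKTR, FB23-2 list, chr3:42601105-42601204, plus strand: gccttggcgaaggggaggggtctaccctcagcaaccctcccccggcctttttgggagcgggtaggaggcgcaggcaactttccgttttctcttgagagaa
URGCP-MRPS24, FB23-2 list, chr7:43869549-43869748, minus strand: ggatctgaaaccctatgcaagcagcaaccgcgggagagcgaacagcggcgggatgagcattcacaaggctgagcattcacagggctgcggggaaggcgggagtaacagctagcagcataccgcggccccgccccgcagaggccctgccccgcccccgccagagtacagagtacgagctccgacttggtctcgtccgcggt
The remaining interval is the FB23-2 peak of CCDC88A, which starts at chr2:55308657 and ends at the same base as the DMSO peak. GGAC occurred in 2 of these 8 intervals, those of TYMS and UBXN4. By comparison, GGAC on the gene's strand occurred in the first 100 bases of 30.7% of all 35116 windows and in the first 150 bases of 42.3%. Peaks are wider than the modified base, and a window without GGAC says nothing about m6A outside it.

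The same windows give stretches that lie within intronic peaks found in both lists with high enrichment. All 6 stretches of at least 100 bases from shared DMSO peaks with a deposited log2 fold change of 3 or more are shown, limits that were chosen after the values were seen. They come from 5 peaks with log2 fold changes of 3.14 to 5.81. The AL158151 peak spans 25651 bases and the AC005670 peak 38846, so the stretches shown are a small part of each. The fold belongs to the whole peak, and whether these stretches were themselves enriched is not known.
AL158151, DMSO list, chr9:129178212-129178511, plus strand: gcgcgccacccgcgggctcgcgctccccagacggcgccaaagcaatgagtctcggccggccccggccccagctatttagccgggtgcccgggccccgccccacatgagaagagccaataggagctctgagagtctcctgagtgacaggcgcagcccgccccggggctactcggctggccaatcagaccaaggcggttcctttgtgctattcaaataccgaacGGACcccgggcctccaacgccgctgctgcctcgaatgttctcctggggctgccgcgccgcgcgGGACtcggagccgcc
AL158151, DMSO list, chr9:129181521-129181770, plus strand: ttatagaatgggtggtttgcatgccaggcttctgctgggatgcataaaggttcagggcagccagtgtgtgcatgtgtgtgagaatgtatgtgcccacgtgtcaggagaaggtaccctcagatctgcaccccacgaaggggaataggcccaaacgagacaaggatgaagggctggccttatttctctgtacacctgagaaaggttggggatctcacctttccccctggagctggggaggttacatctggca
AC005670, DMSO list, chr17:46979204-46979503, plus strand: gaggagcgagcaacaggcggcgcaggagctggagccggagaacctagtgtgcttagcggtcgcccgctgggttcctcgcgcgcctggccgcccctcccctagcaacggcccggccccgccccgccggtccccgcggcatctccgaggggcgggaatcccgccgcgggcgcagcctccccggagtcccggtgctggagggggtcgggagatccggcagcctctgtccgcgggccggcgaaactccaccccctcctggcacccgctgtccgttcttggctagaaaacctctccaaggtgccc
GABPB1, DMSO list, chr15:50353924-50354223, minus strand: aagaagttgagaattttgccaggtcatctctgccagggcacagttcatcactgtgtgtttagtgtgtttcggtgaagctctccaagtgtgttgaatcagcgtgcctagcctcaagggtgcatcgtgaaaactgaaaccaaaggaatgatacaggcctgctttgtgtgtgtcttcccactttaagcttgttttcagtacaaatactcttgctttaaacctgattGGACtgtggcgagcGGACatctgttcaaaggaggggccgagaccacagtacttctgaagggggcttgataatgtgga
ROBO3, DMSO list, chr11:124876583-124876813, plus strand: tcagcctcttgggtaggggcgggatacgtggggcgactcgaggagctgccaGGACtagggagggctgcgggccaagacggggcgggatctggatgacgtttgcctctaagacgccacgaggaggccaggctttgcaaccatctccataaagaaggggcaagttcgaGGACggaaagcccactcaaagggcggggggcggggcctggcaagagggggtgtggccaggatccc
GTPBP3, DMSO list, chr19:17337303-17337407, plus strand: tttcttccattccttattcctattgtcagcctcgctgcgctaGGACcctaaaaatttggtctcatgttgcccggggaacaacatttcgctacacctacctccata
GGAC occurred 2 times in the first, IER5L stretch of AL158151 and in those of GABPB1 and ROBO3, 1 time in that of GTPBP3, and not at all in the other stretch of AL158151, from the LOC105376289 window, or in that of AC005670. Over all 13 window stretches of at least 100 bases in shared DMSO intronic peaks, 6 held GGAC (46.2%), and in the FB23-2 list 7 of 15 did (46.7%). Among all windows the share was 30.7% in the first 100 bases and 66.3% over the whole 300 bases. The first AL158151 stretch is antisense to the start of IER5L, that of AC005670 is antisense to the start of RPRML and that of GABPB1 is antisense to the start of GABPB1-AS1. Whether the libraries kept strand is not given in the sources used here, so peaks on either strand of such a pair cannot be told apart with certainty.

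In all, 2 intronic DMSO peaks overlapped a microRNA hairpin. The peak assigned to AC018512 (chr15:43793659-43793758) covered 100 of the 101 bases of MIR1282, with a log2 fold of 1.24 and a deposited p of 1.68e-103, and had no counterpart in the FB23-2 list. It also lay over SERF2 and SERF2-C15ORF63 on the opposite strand, and from which RNA the fragments came was not tested. The mature sequence of the microRNA is shown with its seed, bases 2 to 8, in capitals.
hsa-miR-1282, mature: uCGUUUGCcuuuuucugcuu
MIR1282 hairpin, chr15:43793659-43793759, minus strand: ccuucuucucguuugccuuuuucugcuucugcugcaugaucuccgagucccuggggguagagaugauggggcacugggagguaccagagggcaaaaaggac
The other, assigned to AC004080, covered 22 of the 84 bases of MIR196B, with a log2 fold of 2.52, and was found in both lists. No FB23-2 intronic peak overlapped a hairpin of the table.

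Intronic peaks made up 4.76% of the DMSO list (exact 95% interval, 4.56 to 4.96) and 4.64% of the FB23-2 list (4.44 to 4.85). These intervals, like all those below, cover the counting of peaks only, and the 2 overlap. Coding exon peaks were 12.9% and 12.8% of the lists and 3′ UTR peaks 57.3% and 57.3%. By chromosome, the intronic share was highest on chromosome 16, at 6.76% and 6.75%, and lowest on chromosome 6 in the DMSO list (2.80%) and chromosome 10 in the FB23-2 list (3.0%). No intronic peak lay on the mitochondrial chromosome or on Y. By RefSeq name, protein-coding genes held 1970 of the 2036 DMSO peaks (96.8%) and 1881 of the 1941 FB23-2 peaks (96.9%), against 86.1% and 86.4% of all peaks. Names without a RefSeq match held 62 and 55 of the intronic peaks. A separate label for introns of noncoding RNA was given to 0 and 1 peaks, so introns of noncoding genes are hardly represented here.

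Peaks within introns were short and of low enrichment. They spanned a median of 175 bases in both lists, against 575 for all peaks, and 55.5% and 56.5% spanned at most 200 bases, against 18.8% and 19.8% of all peaks. Spans run from the first to the last base, and the tables hold no blocks, so a long span may include exons and introns alike. The deposited log2 fold change, read here as immunoprecipitate over input and set by the authors for each peak, had a median of 1.07 in the DMSO list and 1.17 in the FB23-2 list. The medians over all peaks were 1.39 and 1.42. A fold of at least 4 was reached by 308 DMSO peaks (15.1%) and 330 FB23-2 peaks (17%), where 29.2% and 30.4% of all peaks reached it. A deposited p of exactly 0 was listed for 14 and 15 intronic peaks (0.69% and 0.77%), where 11% and 10.8% of all peaks had one.

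**Figure D1:**
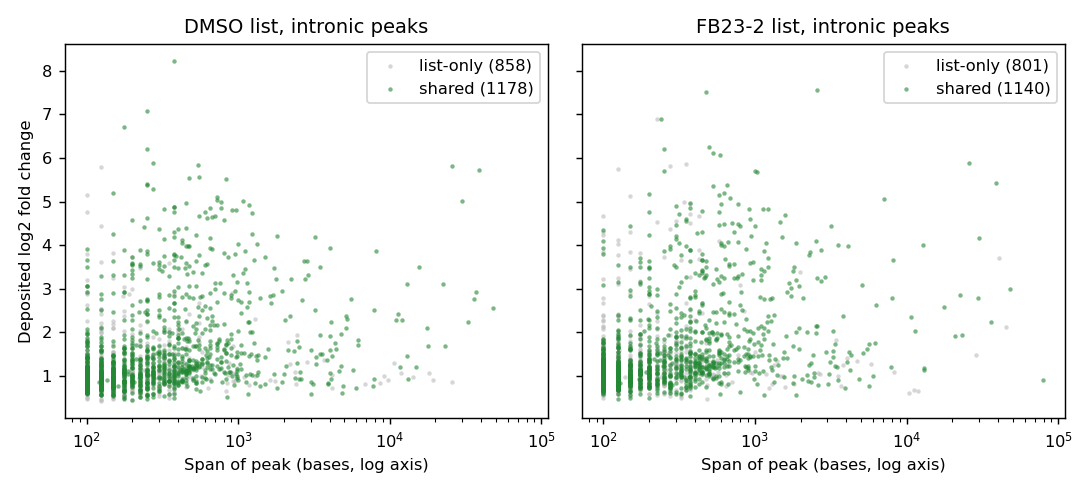
Span of each intronic peak in bases (log axis) against its deposited log2 fold change, in the DMSO list (left) and the FB23-2 list (right); each point is 1 peak, green where the other list holds an overlapping peak and grey where it does not. Most points lie below a log2 fold of 2 and at short spans in steps of 25 bases, and the long, strongly enriched peaks are mostly green.

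Along their genes, intronic peaks were spread widely. The centre lay at a median of 60.9% of the gene's length from its start in both lists, with quartiles of 30.3% and 81.8% in the DMSO list and 30.4% and 82.5% in the FB23-2 list. Coding exon peaks had medians of 61.4% and 60.1%, and 3′ UTR peaks 95% and 95.1%. The peaks of at least 4-fold lay nearer the start, with medians of 46.5% and 47.0%. Within 1000 bases of the gene start there were 92 DMSO and 83 FB23-2 intronic peaks, whose median log2 folds were 1.40 and 1.34 and of which 26.1% and 24.1% reached a fold of 4. At more than 100000 bases from the start there were 256 and 255 peaks, with medians of 1.01 and 1.08.

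**Figure D2:**
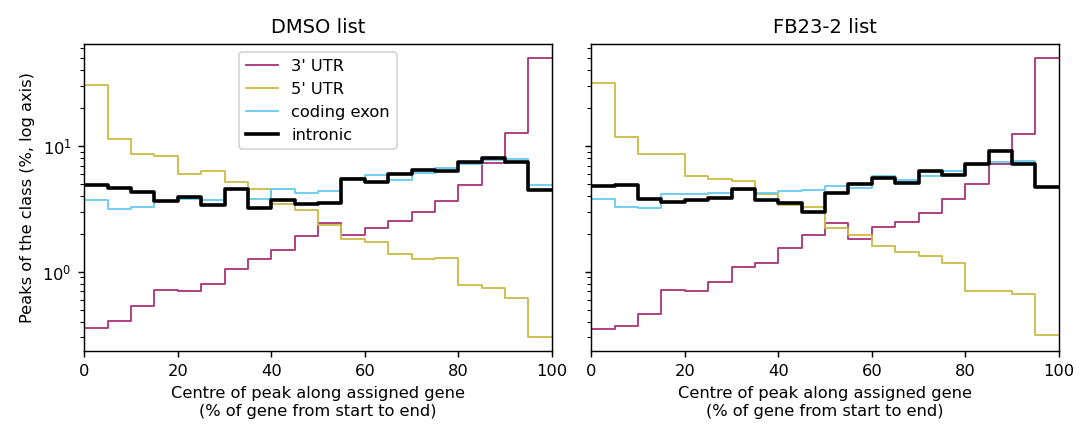
Centre of each peak as a percentage of its assigned gene's length (horizontal axis, in steps of 5 points) against the percentage of the class's peaks in that step (log axis), for the DMSO list (left) and the FB23-2 list (right). The black line of intronic peaks stays close to that of coding exon peaks across the gene, while 5′ UTR peaks crowd the start and 3′ UTR peaks the end.

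Whether an intronic peak had a counterpart in the other list was read from overlap. Peaks of the lists that lay on the same strand and had at least 50% of the shorter one in common were counted as shared. Of the DMSO intronic peaks, 1178 were shared (57.9%, interval 55.7 to 60.0) and 858 were in that list only (42.1%, where 20.1% of all DMSO peaks were). Of the FB23-2 intronic peaks, 1140 were shared (58.7%, 56.5 to 60.9) and 801 were in that list only (41.3%, against 17.3% of all FB23-2 peaks). Coding exon peaks were shared in 68.7% and 74.0% of cases and 3′ UTR peaks in 84.4% and 87.2%, so the intronic class had the lowest share of the 5 main classes in both lists. Of the 858 and 801 peaks, 815 and 758 had no base in common with a same-strand peak of the other list.

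**Figure D3:**
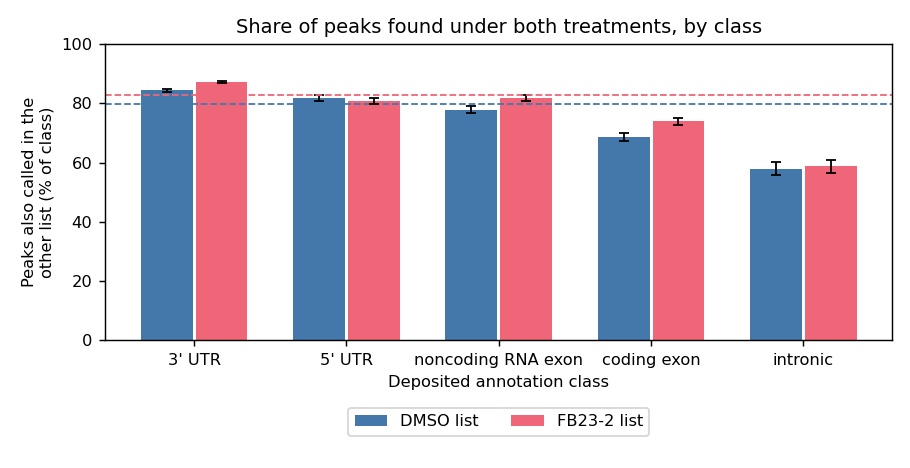
Percentage of peaks in each annotation class that overlap a same-strand peak of the other list (vertical axis), for the DMSO list (blue) and the FB23-2 list (red); error bars are exact 95% intervals and dashed lines the share over all peaks. Intronic peaks stand lowest, at 57.9% and 58.7%, and 3′ UTR peaks highest, at 84.4% and 87.2%.

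Sharing went with enrichment and span. In the DMSO list 46.9% of intronic peaks with a log2 fold under 1 were shared, 59.4% of those from 1 to 2 and 82.5% of those of 2 or more; in the FB23-2 list these shares were 50.4%, 56.8% and 79.4%. Among peaks of at most 200 bases with a log2 fold under 1, 40.4% of the DMSO intronic peaks were shared, beside 37.9% of coding exon peaks and 49.5% of 3′ UTR peaks of the same size. The corresponding FB23-2 shares were 46.6%, 56.4% and 57.2%. At the other end, with a span over 500 bases and a log2 fold of 2 or more, 122 of 126 DMSO intronic peaks (96.8%) and 136 of 142 FB23-2 intronic peaks (95.8%) were shared, beside 95.2% and 95.9% of coding exon peaks and 99.1% of 3′ UTR peaks in each list. Between these, at 200 to 500 bases and a log2 fold of 1 to 2, 67.9% and 65.5% of intronic peaks were shared, beside 69.5% and 69.9% of coding exon peaks and 90.6% and 92.2% of 3′ UTR peaks. List-only intronic peaks had a median span of 125 bases in both lists and median log2 folds of 1.0 and 1.08. Shared intronic peaks had a median span of 250 bases and median log2 folds of 1.18 and 1.25.

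The partner of a shared intronic peak was not always labelled intronic. The partner with the largest overlap was itself intronic for 794 of the 1178 shared DMSO peaks (67.4%), in the 3′ UTR class for 147, coding exon for 142 and 5′ UTR for 95. For the 1140 shared FB23-2 peaks the counts were 783 (68.7%), 156, 128 and 73. Start and end were identical, with both peaks intronic, for 130 DMSO and 128 FB23-2 peaks. The partner had the same assigned gene in 98.8% and 98.7% of cases.

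The intronic regions of highest enrichment that were found in both lists lay in genes of varied function. FBRSL1, a gene of the fibrosin-like family, held the highest DMSO value, a log2 fold of 8.22 at chr12:132551179-132551553, and its FB23-2 counterpart had 5.70. PCNX1, the human pecanex homologue, had 7.08 over 250 bases in the DMSO list and 3.35 over 825 bases in the FB23-2 list. ESRP2, an epithelial splicing regulator, had 5.83 and 6.06 over regions that begin at the same base, chr16:68236845. These regions were chosen for their height in the DMSO list, so a lower FB23-2 value is no sign of a difference between treatments.

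TMCC1, which encodes an endoplasmic reticulum membrane protein, had the same 910-base peak in both lists, chr3:129847048-129847957, with log2 folds of 4.81 and 4.83 and a deposited p of 0 in each. IGF2BP1, an m6A reader that stabilises its target transcripts, had an identical 300-base peak, chr17:49037122-49037421, with 3.55 and 3.51. ESR2, the gene of oestrogen receptor beta, had 5.55 and 5.36 at 2.99% of the gene's length. These 3 regions differed little between the lists in place and height.

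ATG16L1, an autophagy gene, had a peak at chr2:233275752-233276001 in both lists, with log2 folds of 6.20 and 3.86, and this interval lies over SCARNA5, a small Cajal body RNA. MORN1 had 2 neighbouring peaks, at 6.70 and 5.87 in the DMSO list and 4.85 and 4.29 in the FB23-2 list. The longest intronic spans were those of NXN, the nucleoredoxin gene (48298 bases in both lists, log2 folds of 2.56 and 3.0) and, in the FB23-2 list, ZBTB20 (79399 bases, 0.90), a transcriptional repressor. ZBTB20 also held a shared 400-base peak with 4.36 and 3.36.

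Over all 685 regions that paired 1 to 1 with both peaks intronic, the log2 folds of the lists correlated with a Pearson r of 0.90 and a Spearman rho of 0.82. This describes regions that were enriched enough to be in both lists, whose 2 values share the sequence and the gene. The values lay within 0.5 of each other for 557 pairs (81.3%). Medians over the pairs were 1.19 in the DMSO list and 1.24 in the FB23-2 list.

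**Figure D4:**
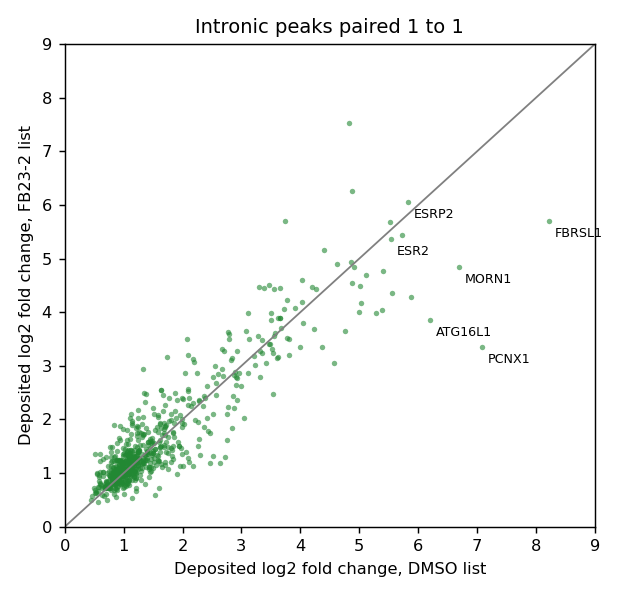
Deposited log2 fold change in the DMSO list (horizontal axis) against that in the FB23-2 list (vertical axis) for the 685 intronic regions that paired 1 to 1; each point is a region and the grey line marks equal values. Most points lie between 0.5 and 2 close to the line, and PCNX1, ATG16L1, MORN1 and FBRSL1 lie well below it.

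Intronic peaks of high fold often lay over another RefSeq locus. With strand ignored, a locus other than the assigned gene overlapped 373 DMSO peaks (18.3%, 16.7 to 20.1) and 371 FB23-2 peaks (19.1%, 17.4 to 20.9), close to the 16.9% of all peaks in each list. Such a locus was known to be on the peak's strand for 98 and 87 intronic peaks (4.81% and 4.48%, against 3.44% and 3.34% of all peaks). It was on the opposite strand for 125 and 113 and of unknown strand for 197 and 207, and a peak over several loci can count more than once. The shares that follow also ignore strand. Among intronic peaks of at least 4-fold the share was 43.8% (38.2 to 49.6) and 45.8% (40.3 to 51.3), where over all peaks of that fold it was 22.6% in each list. Of the 50 most significant intronic peaks in each list, 25 lay over another locus, a count that was not made over all peaks. Where the assigned gene had a RefSeq match, so that the other locus was not merely the same gene under another name, the 4-fold shares were 40.6% and 43.6%.

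These other loci were mostly noncoding, though kinds of locus were not counted over all peaks, so this is not shown to be particular to introns. In the DMSO list lncRNA genes lay under 174 intronic peaks, pseudogenes under 98, transcribed pseudogenes under 35, protein-coding genes under 94 and snoRNA genes under 8; in the FB23-2 list the counts were 169, 104, 36, 81 and 9. Peaks over another locus had median log2 folds of 1.47 and 1.54, against 1.03 and 1.12 for the rest, and median spans of 300 bases in both lists against 175 and 150. Other loci were found under 23.3% and 24.8% of shared intronic peaks and 11.4% and 11% of list-only ones. Overlap alone does not say from which of the RNAs the fragments came.

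Several of the members with the smallest deposited p lay over such loci, while that of TMCC1, with a deposited p of 0 in both lists, lay over none. The peak assigned to AL158151 (chr9:129175807-129201457 in the DMSO list) had log2 folds of 5.81 and 5.88, each with a deposited p of 0, and spanned LOC105376289 on its strand and IER5L on the other. GABPB1, which encodes a subunit of the transcription factor GABP and is known for a retained intron, had 4.21 and 4.06 at chr15:50353061-50354860 and chr15:50352986-50354860, over GABPB1-IT1 and the start of GABPB1-AS1. AC124312 had 3.95 and 3.99 over PWAR5, a transcript of the imprinted Prader-Willi region, and AC006978 had 4.73 and 4.83 over DKFZP586I1420. Each of these 4 regions was present in both lists with log2 folds that differed by less than 0.2. AL158151, AC124312 and AC006978 are clone names. Apart from IER5L on the opposite strand, the RefSeq loci under them may therefore be the same gene under another name.

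Small nucleolar RNAs, which guide modification of ribosomal RNA and are mostly processed out of introns, were met by few intronic peaks. SNORA73B in RCC1 lay under an identical 200-base peak in both lists, with log2 folds of 1.48 and 1.35. SNORD17 in SNX5 lay under peaks of 1.64 and 1.69 that covered 200 and 225 of its 237 bases. SNORD45B in RABGGTB was covered whole by an FB23-2 peak of 0.72. Of the fixed list of small RNA host genes, 46 and 41 had a peak of any class. Only NOP56 had one in an intron, in the DMSO list. That is 1 of 46 and 0 of 41, where 9.47% and 9.22% of all genes with a peak had one. Many of these hosts are noncoding genes, which the intronic label seldom reached. RefSeq lncRNA genes held 2 intronic peaks in each list (0.10% in each), but 4.46% and 4.41% of all peaks. The low count therefore cannot be read as a lack of intronic peaks in these hosts.

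Genes with an intronic peak numbered 1530 of the 16158 with any DMSO peak (9.47%) and 1475 of the 16003 with any FB23-2 peak (9.22%). Of the 2127 in either list, 878 (41.3%) were in both, 652 had one under DMSO alone and 597 under FB23-2 alone. Over all peaks, 91.3% of genes were in both lists. A peak of another class was present in 97.4% and 97.1% of the intronic-peak genes, so 40 and 43 genes had intronic peaks alone. Intronic-peak genes had a median of 4 peaks of any class, against 2 for all genes with a peak. Most, 77.3% and 77.4%, held a single intronic peak.

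Within genes that held both kinds, the intronic peak was rarely the leading one. It was the most significant peak in 65 DMSO genes (4.36%) and 69 FB23-2 genes (4.82%). It had the highest fold in more of them, 279 (18.7%) and 316 (22.1%). Of those with such a peak, 39.4% of DMSO and 40.4% of FB23-2 intronic peaks lay within 1000 bases of a peak of another class in the same gene, and the median gaps were 1988.5 and 1900 bases.

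List-only intronic peaks were almost always in genes that the other list held through another region. The gene had a peak of some class in the other list for 98.3% of the 858 peaks found under DMSO alone and 98.8% of the 801 found under FB23-2 alone, and an intronic peak there for 40.8% and 38.3%. At least 3 list-only intronic peaks occurred in 19 genes of the DMSO list and 17 of the FB23-2 list. The genes described next are those with the most.

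DHODH, the mitochondrial enzyme of pyrimidine synthesis, had 4 DMSO-only peaks between chr16:72015924 and chr16:72016748, with log2 folds of 1.76, 1.22, 0.86 and 0.77. None of its 6 FB23-2 peaks was intronic. OGG1, a DNA glycosylase that removes oxidised guanine, had 4 DMSO-only peaks from 0.86 to 1.24 and 1 FB23-2-only peak of 1.08 at a different position. All of these OGG1 peaks lay over CAMK1 on the opposite strand. SPG7, a mitochondrial protease subunit, had 6 intronic DMSO peaks, 4 of them DMSO-only with 0.79 to 1.23, against 2 in the FB23-2 list. The highest of these log2 folds, 1.76 in DHODH, lies above the upper quartile of DMSO intronic peaks (1.48), the rest lie below it, and the deposited p of the lowest DHODH peak is 0.045.

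In the other direction, N4BP2L2 had 5 FB23-2-only peaks with log2 folds of 0.89 to 1.20, next to 1 shared peak. MSANTD2 had 4 FB23-2-only peaks from 0.69 to 1.14 and no intronic peak in the DMSO list. POLR3E, an RNA polymerase III subunit, had 4 FB23-2-only peaks, the highest at 2.26. The largest folds were in LRRC28, whose 3 FB23-2-only peaks over the pseudogene HSP90B2P had 4.10, 3.89 and 4.72, beside a neighbouring shared peak with 2.67 in the DMSO list and 3.31 in the FB23-2 list. MAP3K20, a stress-activated kinase gene, had 4 FB23-2-only peaks from 1.42 to 2.50 directly downstream of a shared peak with 1.41 and 1.77, all over MAP3K20-AS1.

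**Figure D5:**
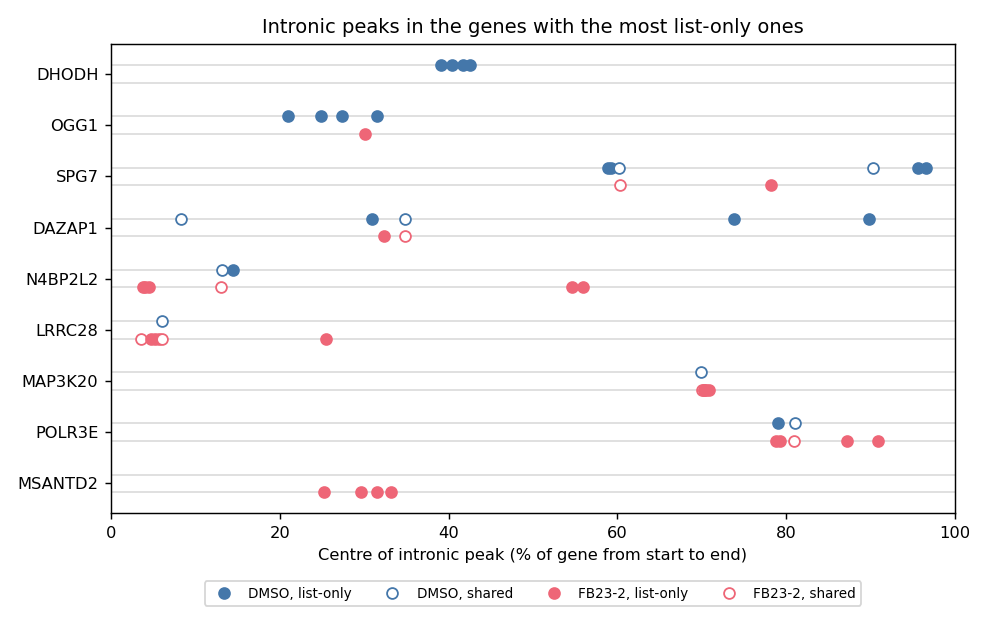
Centres of intronic peaks along 9 genes (horizontal axis, percentage of the gene from start to end) for the genes with the most list-only intronic peaks; the upper line of each gene is the DMSO list (blue) and the lower the FB23-2 list (red), filled where the peak is list-only and open where it is shared. The list-only peaks of DHODH and MAP3K20 lie side by side in 1 stretch of the gene, 3 of the 4 of LRRC28 do and the other lies apart, and those of SPG7 and DAZAP1 are spread.

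The highest list-only folds belonged to small regions. In the FB23-2 list these were ZNF224 at 6.89, SFI1 at 5.86, NBPF3 at 5.81 and FARP1 at 5.74, with spans of 125 to 350 bases. In the DMSO list they were AC022414 at 5.79, over ZBED3-AS1, then 2 adjacent 100-base peaks of SYT7 at 5.15 and 4.75, CYB5R2 at 4.45 and KDM4B at 3.81. Of the FB23-2 peaks, that of SFI1 lay over RPS18P14, of unknown strand, and that of FARP1 over LOC105370327 on its strand. KDM4B, a histone demethylase gene, shows how the overlap rule works here. Its DMSO-only peak at chr19:5078979-5079128 and its FB23-2-only peak at chr19:5078604-5078753, with 3.83, had no base in common.

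The smallest deposited p-values among list-only intronic peaks went with low folds. In the DMSO list they included RPL11, with a log2 fold of 1.12 and a deposited p of 0, RPL7 (0.87), RPS27A (0.67) and RPS13 (0.57), all ribosomal protein genes. Of the 17 intronic DMSO peaks with a deposited p under 1e-50 and a log2 fold under 1, 7 were in ribosomal protein genes and 5 were list-only, where 26 and 63 of 545 such peaks of all classes were. The FB23-2 list held 10 such intronic peaks, 4 in ribosomal protein genes and 2 list-only, where 29 and 25 of 525 of all classes were. In that list the leading list-only peaks by p were TUBA1B, an alpha tubulin gene (1.77, deposited p of 6.57e-290), then UQCRB, SRSF9, AP2M1 and CCT7, with 0.76 to 1.27.

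Of the 3 genes named in the study's title, 0 had an intronic peak in the DMSO list and 1 in the FB23-2 list, numbers too small to set against the 9.47% and 9.22% of all genes. ERBB3, a receptor of the epidermal growth factor family, and TUBB4A, a beta tubulin, had none in either list although both carried peaks of other classes. FTO itself had 1, in the FB23-2 list only, at chr16:54072377-54072501, with a log2 fold of 1.26 and a deposited p of 1.24e-07. This peak lay over LOC105371271, a locus of unknown strand, and from which RNA the fragments came was not tested. Of the ERBB receptors and their ligands, 9 had a peak of any class in each list and only EGFR had an intronic one, at different places in the lists, with 0.98 and 1.25. This is 11.1% of these genes, near the 9.47% and 9.22% of all genes.

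Among the m6A machinery, 8 of the 30 genes with a peak had an intronic one in the DMSO list (26.7%, against 9.47% of all genes) and 6 of 30 in the FB23-2 list (20%, against 9.22%). In this and the other gene-list comparisons, peaks per gene were not matched. Intronic-peak genes had a median of 4 peaks, against 2 for all genes, so a higher share may go with more peaks, which was not tested. The lists also overlap, with HNRNPA2B1 and TIA1 each in more than 1. METTL3, the catalytic methyltransferase subunit, had 3 DMSO intronic peaks with log2 folds of 0.87 to 1.06 and 1 FB23-2 peak of 0.97, and the DMSO partner of that peak lay at chr14:21507678-21508027. YTHDC2, a reader with a helicase domain, had a shared peak of 0.68 and 0.73. PRRC2A and FXR1, both described as m6A readers, had DMSO-only peaks of 1.24 and 0.63, and METTL16, which methylates U6 and the MAT2A transcript, had an FB23-2 peak of 0.96 whose partner was a coding exon peak. Over the list, 8 of 11 DMSO and 5 of 7 FB23-2 intronic peaks were shared, where 57.9% and 58.7% of all intronic peaks were, with median log2 folds of 0.99 and 0.96, below the class medians of 1.07 and 1.17.

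Of 35 genes with a peak that have been reported to retain introns, 15 had an intronic peak in the DMSO list (42.9%) and 12 in the FB23-2 list (34.3%), where 9.47% and 9.22% of all genes did. The number of peaks per gene was not matched in this comparison. OGT, the enzyme that adds N-acetylglucosamine to proteins, which has a well-known detained intron, had a shared peak at chrX:71544715-71545139 with 0.93 in the DMSO list (deposited p of 5.49e-44) and 1.22 in the FB23-2 list (5.00e-140). RSRP1 had 4 DMSO peaks from 1.15 to 3.07 and 3 FB23-2 peaks from 1.88 to 4.96. SRRM2, a splicing scaffold gene, had 1 shared peak (1.29 and 1.22) and 1 list-only peak on each side.

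Of the 33 SR and hnRNP splicing factor genes with a peak, 7 had an intronic one in each list (21.2%, against 9.47% and 9.22% of all genes), and the median log2 folds were 0.94 and 0.77, beside 1.07 and 1.17 for the class. SRSF9 had 3 DMSO peaks of 0.76 to 1.16, all shared with exon or 3′ UTR peaks, and an FB23-2-only peak of 1.06. HNRNPD had a 100-base DMSO-only peak of 1.07 with a deposited p of 2.17e-73. Of 19 genes of 3′ end processing, 6 (31.6%) and 5 (26.3%) had an intronic peak, against the same shares of all genes, with median log2 folds of 1.02 and 1.29. Among them were NUDT21, a cleavage factor subunit, with the same 4139-base span in both lists (1.46 and 1.56), and CLP1, with a DMSO peak of 3.74 whose partner was a 5′ UTR peak.

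Of 13 genes with a peak that were reported to use intronic polyadenylation sites, 5 had an intronic peak in each list (38.5%, against 9.47% and 9.22% of all genes). CDK12, a kinase of transcription elongation, had a DMSO peak of 1.89 and an FB23-2 peak of 1.80 that overlapped by under the required share at chr17:39550007-39550556 and chr17:39549757-39550056. Its relative CDK13 had a shared peak of 0.91 and 0.94 near its end. PCF11, a cleavage factor that acts on its own transcript, had an FB23-2 peak of 1.60 (deposited p of 8.77e-91) whose DMSO partner was a coding exon peak. In the U1 snRNP list, whose particle restrains intronic polyadenylation, 4 and 5 of 11 genes had an intronic peak (36.4% and 45.5%, against the same shares of all genes). LUC7L2 and RBM25 had peaks at identical positions in both lists, with 0.89 in each for LUC7L2 and 0.73 and 0.77 for RBM25.

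Marker genes contributed little to the intronic set. KRT18, an epithelial keratin, had an FB23-2-only peak of 1.08. ACTA2, a smooth muscle actin gene, had 3 DMSO peaks with 3.86, 3.07 and 1.10, and all lay over FAS on the opposite strand. All were partnered by a 5′ UTR peak of 2.26 in the FB23-2 list, which spans chr10:88948922-88990669.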

How the data were processed

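MHCC97H cells under 2 treatments, with 3 samples each, were profiled by m6A immunoprecipitation and sequencing. The authors deposited 1 peak table per treatment that gives each peak's span, its log2 fold change and its raw and adjusted p-value, and per the file headers no column belongs to a sample. HISAT2, Cuffdiff and GRCh38 are named per the submitters' processing notes; which tool called the peaks, and all versions, are not stated there. Depth per sample is unknown, and intervals cover the counting of peaks only. No column of per-sample values was left aside.

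Deposited starts count from 0 (1 below the assigned gene's start for 5661 and 5528 peaks, equal to it for 0), and positions are printed 1-based. Overlaps were computed with bedtools 2.31.1 and tested on simulated data, and shares with scipy 1.17.1 (Clopper-Pearson, 95%). Folds were compared within a list, and set side by side between lists only as values. RefSeq tables (GRCh38.p14) gave second loci, by position, and sequences. No test between treatments was possible, and p-values are the authors'.

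The members and gene lists were chosen with earlier results of these data known. Genes are named by rule: the title genes; the 10 shared DMSO peaks of highest fold and 5 shared FB23-2 peaks of smallest p; per list the 8 list-only peaks of smallest p and 5 of highest fold; the genes with the most intronic or list-only peaks; up to 5 members per gene list; and the 3 longest spans. AC004080, RCC1, SNX5, RABGGTB, METTL3, YTHDC2, FXR1, METTL16, RSRP1, NUDT21 and the genes whose sequences are printed were chosen after their values were seen. Some genes that the rule names are not reported here.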

Additional observations from a re-analysis of the deposited data

How the results depend on the processing

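No paired analysis was possible because the tables hold 1 list per treatment with no values per sample, and leaving out a replicate could not be run for the same reason. Strand ignored moved no result beyond its interval. Shared percentages are given as DMSO then FB23-2. With adjusted p under 0.001 the shared share was 64.4% (60.5% for FB23-2) and the DMSO-only count 531. With a fold of at least 4 it was 70.8% and 63.9%, with 90 and 119 list-only peaks. With equal numbers of top peaks (33470 per list) it was 68.0% and 66.1%, with 339 and 366. Any overlap gave 60.9% for FB23-2, where DMSO stayed within its interval. A reciprocal 50% overlap gave 35.4% and 37.0%, with 1316 and 1223, and requiring an intronic partner gave 42.7% and 44.6%. The intronic share of peaks was 3.93% and 4.02% with adjusted p under 0.001, 2.46% and 2.59% at 4-fold, and 0.65% and 0.70% with each gene counted once by its most significant peak.

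The median log2 fold was 1.20 and 1.26 with adjusted p under 0.001, and by construction 2.97 and 3.23 at 4-fold. Median span was 225 bases (DMSO) with adjusted p under 0.001, and 400 and 448 at 4-fold, where the median position was 46.5% and 47.0% of the gene. Another class of peak was then present in 62.5% and 59.3% of intronic-peak genes, and genes with an intronic peak numbered 178 in both lists, 91 DMSO-only and 107 FB23-2-only. The EGFR peak of the DMSO list was lost with adjusted p under 0.001, leaving 0 ERBB genes there. Fewer peaks entered the filtered settings; other causes were not tested. The unknown depth of each list limits every list-only count.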
